A study of Mus musculus with 48 samples.

Results

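Neat1, Malat1, Meg3, Miat and Snhg11 are abundant long RNAs of the mouse brain known mainly from the nucleus. They are 5 of the 54532 genes in the deposited expression table and were found there by their gene symbols; 1 entry of the table carries each symbol. Neat1 was picked because its level in the hemisphere was higher in mice given angiotensin II than in vehicle mice, so its values in those libraries are given as a description, with no test. The other 4 were taken as abundant RNAs of the same kind. The study dealt with high blood pressure, neuroinflammation, brain injury and cognition in male wild-type C57Bl6 mice, and its 48 libraries came from 8 groups of 6. Osmotic minipumps delivered either angiotensin II, a peptide that constricts vessels and raises blood pressure, at 0.7 mg per kg per day, or saline (0.9%) as vehicle, for 2 weeks. Within each arm, mice either drank no drug or drank hydralazine, a vasodilator that lowers blood pressure, at 50 mg per kg. This gave vehicle, angiotensin II, hydralazine alone (vehicle pump) and both drugs, each sampled in brain hemisphere and in hippocampus; all groups carried a pump. No age is given in the labels used here. The labels do not say in so many words that the libraries of a group came from separate mice, so p-values measure only the spread between these libraries.

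Long noncoding RNAs of this kind act as RNA, without a protein product. Neat1 is the scaffold of paraspeckles, small nuclear bodies that hold RNA-binding proteins such as Sfpq, Nono and Pspc1; its long isoform builds the body, and it is known to respond to cell stress. Malat1, its neighbour on the chromosome, collects in nuclear speckles, where splicing factors are stored. Meg3 is transcribed from the maternal copy of the imprinted Dlk1-Dio3 domain and is known for its high level in neurons. Miat, also called Gomafu, is a neuronal RNA of the nucleus that binds splicing factors through a repeated word. Snhg11 is a host gene of small nucleolar RNAs, whose introns carry them, and is abundant in neurons.

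All coordinates are on the GRCm38 build. Neat1 (ENSMUSG00000092274) spans chr19:5824708-5845478 on the minus strand, and Malat1 (ENSMUSG00000092341) spans chr19:5795690-5802672 on the same strand, 22035 bases away. Meg3 (ENSMUSG00000021268) lies at chr12:109541001-109571726 on the plus strand, Miat (ENSMUSG00000097767) at chr5:112213228-112229395 on the minus strand and Snhg11 (ENSMUSG00000044349) at chr2:158375638-158386145 on the plus strand. The deposited table classes Snhg11 as protein coding and the other 4 as long noncoding. GENCODE M21 annotates a long Neat1 transcript of 20771 bases in 1 exon and a shorter one of 3004 bases that begins 2 bases further in, so the gene's level does not separate the isoforms.

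The ends of the 2 neighbours, Neat1 and Malat1, are shown because neither the long Neat1 transcript nor Malat1 has a normal poly(A) tail. In both, U-rich stretches pair with an A-rich end in a triple helix that is known to protect the RNA. These are the last 120 bases of the long Neat1 transcript (chr19:5824708-5824827, minus strand) and the 120 bases of Malat1 that end with the same letters (chr19:5795982-5796101, minus strand), from the GENCODE M21 transcripts. Capitals mark runs of at least 8 bases present in both.
Neat1: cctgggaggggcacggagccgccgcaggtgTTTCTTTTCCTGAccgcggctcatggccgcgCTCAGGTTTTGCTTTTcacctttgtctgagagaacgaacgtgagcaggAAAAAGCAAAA
Malat1: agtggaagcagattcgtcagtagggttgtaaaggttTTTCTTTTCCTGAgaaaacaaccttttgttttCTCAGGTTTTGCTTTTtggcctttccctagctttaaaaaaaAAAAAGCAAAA
The runs in capitals cover 40 of the 120 bases in each tail. The final 11 bases are identical, occur once in the 6983 bases of the long Malat1 transcript and end at its base 6691.

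For Miat the stretch with the most copies of TACTAAC is shown, the word of the intron branch point, since Miat is known to bind the splicing factor Sf1 through it. The 180 bases below come from the last of 7 exons (exon 7; chr5:112217276-112217455, minus strand), with the word in capitals; only this strand was searched.
Miat: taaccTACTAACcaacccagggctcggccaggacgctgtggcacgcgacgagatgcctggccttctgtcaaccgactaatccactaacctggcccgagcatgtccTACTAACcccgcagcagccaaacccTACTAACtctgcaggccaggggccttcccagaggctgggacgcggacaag
The 9163-base Miat transcript holds 6 copies, 3 of them here. Of 7040 mouse transcripts of at least 5000 bases, 15.7% hold any copy and 0.0426% hold at least as many as this one. The latter are 3 transcripts of 2 genes, and they include Miat-201 and Miat-205 themselves, with 6 copies each. Neat1 holds 1 copy, and Malat1, Meg3 and Snhg11 hold 0 in their transcripts of that length.

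The promoters of the 3 members whose levels moved together across hemisphere libraries (Malat1, Meg3 and Snhg11, below) are printed next, 250 bases before to 50 after the start, from RefSeq (GRCm38.p6); RefSeq promoters matched 4 members, all but Neat1. They were searched on both strands for TGACGTCA (the CRE), TATAAA (the TATA box), ACGTG (the core of the hypoxia element), CACGTG (the E-box, which contains that core), TGAGTCA (AP-1) and GAANNTTC (heat shock element). Matches are in capitals.
Meg3, chr12:109540746-109541045, plus strand: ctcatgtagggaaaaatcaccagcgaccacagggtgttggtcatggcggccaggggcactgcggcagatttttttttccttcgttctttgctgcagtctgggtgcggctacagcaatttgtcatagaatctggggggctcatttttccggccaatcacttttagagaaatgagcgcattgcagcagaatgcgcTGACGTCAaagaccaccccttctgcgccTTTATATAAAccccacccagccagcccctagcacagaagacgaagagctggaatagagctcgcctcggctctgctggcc
Malat1, chr19:5802623-5802922, minus strand: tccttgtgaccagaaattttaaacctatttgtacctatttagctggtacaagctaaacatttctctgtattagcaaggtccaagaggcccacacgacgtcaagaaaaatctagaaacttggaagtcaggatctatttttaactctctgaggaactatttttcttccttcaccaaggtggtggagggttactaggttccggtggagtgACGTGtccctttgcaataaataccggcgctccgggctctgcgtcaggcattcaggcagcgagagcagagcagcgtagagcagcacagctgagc
Snhg11, chr2:158375463-158375762, plus strand: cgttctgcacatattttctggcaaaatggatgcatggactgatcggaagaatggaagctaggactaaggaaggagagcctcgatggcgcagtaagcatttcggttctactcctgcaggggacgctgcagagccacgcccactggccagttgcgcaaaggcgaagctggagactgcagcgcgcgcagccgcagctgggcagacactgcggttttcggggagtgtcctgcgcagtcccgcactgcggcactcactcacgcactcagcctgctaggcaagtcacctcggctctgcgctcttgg
The Meg3 promoter printed here, the first of 2 in RefSeq, holds TGACGTCA at position -57 from the start. This word is found in 1.8% of 32544 mouse promoters. The same window also holds overlapping TATA matches at -29 and -25 (13.6% of promoters). The second Meg3 window (chr12:109545148-109545447, plus strand) holds none of the 6 words and is not printed. Malat1 holds ACGTG at -43 (19.7% of promoters), and the Snhg11 window holds none of the 6 words, of which the E-box occurs in 7.17%, the AP-1 word in 5.19% and the heat shock element in 7.89% of promoters. A match is a description of letters, and no promoter activity was measured here.

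Levels are FPKM, fragments per kilobase of gene per M reads (M stands for 1000000), with each gene divided by its deposited length. That length is 20771 bases for Neat1 and 18089 for Meg3. Their annotated transcripts are as short as 711 and 421 bases. Comparisons of FPKM between members therefore also depend on the isoforms present, which were not separated. Hemisphere libraries held 15.8 to 23.5 M reads in genes and 23161 to 25610 genes above 0; hippocampal libraries held 1.21 to 21 M reads and 7805 to 23044 genes. Of the hippocampal libraries, 6 had under 16000 genes above 0: vehicle replicates 3 and 4, angiotensin II replicate 3, hydralazine alone replicates 3 and 4, and both drugs replicate 5. Their effect on results is given where it changed one. Neat1 was covered by 2348 to 5326 reads in hemisphere libraries and by 121 to 2352 in hippocampal ones. The region labels held for both marker lists: 12 of 12 markers of hippocampal neurons were higher in hippocampus of vehicle mice and 12 of 12 markers of striatal, thalamic and cerebellar neurons were lower. All samples are bulk tissue, in which fewer cells of a type and less RNA per cell cannot be told apart.

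In the hemisphere of vehicle mice, Snhg11 and Meg3 were the most abundant members by FPKM, followed by Malat1, Miat and Neat1. Over all 24 hemisphere libraries, Snhg11 ranked 135, Meg3 156, Malat1 751, Miat 1422 and Neat1 5556 by mean FPKM among the 35589 genes above 0. In the 24 hippocampal libraries the order of the 5 was the same, at ranks 661, 1146, 2427, 2448 and 7778 of 31009. Snhg11 in the hemisphere of vehicle mice ran from 168 to 238 FPKM with a median of 213, and Neat1 there from 5.99 to 7.85 FPKM with a median of 7.05. All 5 members had a higher mean in each hemisphere group than in each hippocampal group.

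**Figure D1:**
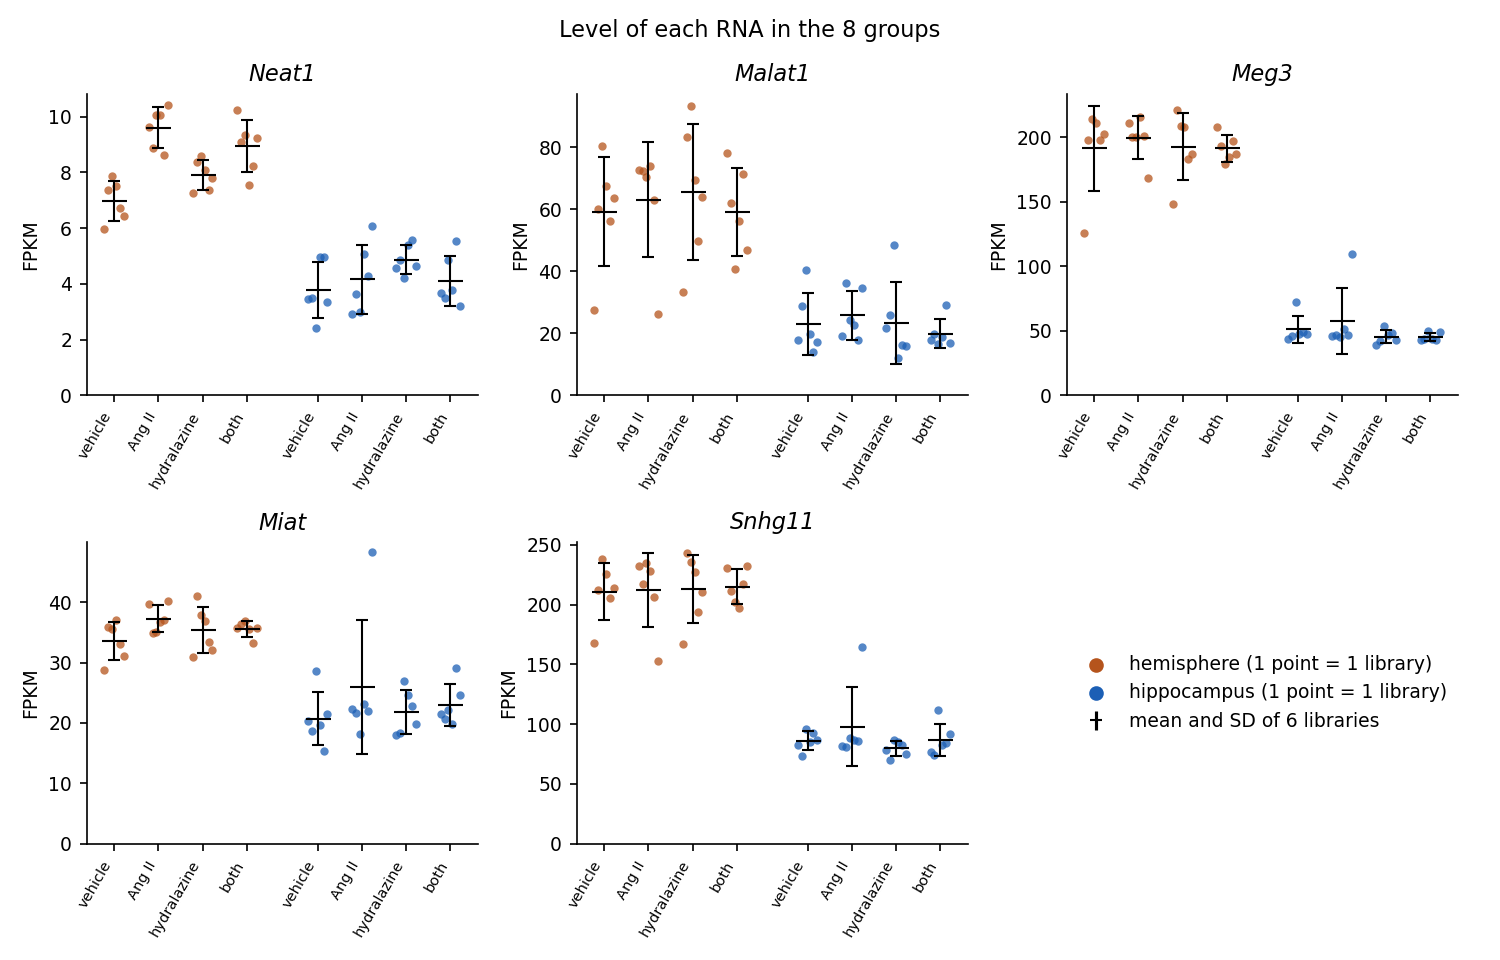
Level of each member (FPKM, linear axis from 0) in the 8 groups; points are the 6 libraries of a group and bars the group mean. Hemisphere groups sit above hippocampal groups for each member, and Neat1 in hemisphere angiotensin II libraries (8.64 to 10.4 FPKM) lies above all vehicle libraries (5.99 to 7.85 FPKM).

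Neat1 in the hemisphere was higher in every angiotensin II library than in any vehicle library. The 6 angiotensin II libraries ran from 8.64 to 10.4 FPKM, with a mean of 9.61 ± 0.720 (SD, n = 6), against 6.98 ± 0.718 in vehicle. The 2 groups did not overlap, and the fold was 1.35 (0.44 ± 0.07 SE on the log2 scale). Neat1 was chosen on this contrast, so no test is given, and how many of all genes separated the 2 groups this fully was not counted. Of all 16747 genes tested by limma in it, 12 were called at an adjusted p under 0.05 (Benjamini-Hochberg), which is 0.0717%; 1548 had an unadjusted p under 0.05. Leaving out vehicle replicate 5, vehicle replicate 6 or angiotensin II replicate 4, one at a time, left 0 genes called, whereas leaving out vehicle replicate 2 left 3, replicate 3 gave 20 and replicate 4 or angiotensin II replicate 5 left 6.

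The groups given hydralazine lay between these. Hydralazine alone ran from 7.26 to 8.59 FPKM with a median of 7.94, and both drugs from 7.56 to 10.2 with a median of 9.16. Against the same vehicle libraries, the log2 difference was 0.17 ± 0.07 for hydralazine alone and 0.34 ± 0.07 for both drugs, and every library of both groups was above the vehicle mean. Both groups overlapped vehicle at its upper edge. Both drugs stood 0.10 ± 0.07 below angiotensin II alone (log2 difference -0.10), with overlap, and the effect of angiotensin II was smaller with hydralazine by 0.27 ± 0.10 (log2 difference of differences -0.27). These values share the vehicle or angiotensin II libraries that chose Neat1 and are a description.

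The contrast of both drugs against hydralazine alone shares no library with that choice, and there Neat1 was not called. Its level was 1.12-fold that of hydralazine alone (95% interval 1.01 to 1.24; 0.16 ± 0.07 log2), with 5 of 6 libraries above the mean of the other group, an unadjusted p of 0.0329 and an adjusted p of 1.0 by limma. A two-sided exact permutation test of the 6 against 6 libraries, which leaves out the spread of the other groups, gave p = 0.0476 over 924 regroupings and an adjusted p of 0.127 over the 3 Neat1 comparisons so tested; it was chosen after the data were seen. No gene was called in that contrast (0%), and 501 of 16747 had an unadjusted p under 0.05.

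In the hippocampus, the 4 groups of Neat1 overlapped. Vehicle ran from 2.43 to 4.96 FPKM (median 3.47), angiotensin II from 2.93 to 6.06 (3.96), hydralazine alone from 4.21 to 5.58 (4.74) and both drugs from 3.21 to 5.55 (3.73). The level with angiotensin II was 1.09-fold that of vehicle, with an interval of 0.822 to 1.43 (0.12 ± 0.19 log2; adjusted p = 1.0, limma). Without angiotensin II replicate 6, described below, that difference was 0.01 on the log2 scale. All 6 libraries of hydralazine alone were above the vehicle mean, by 0.36 ± 0.19 (log2; adjusted p = 0.677, limma). Both drugs against hydralazine alone gave -0.24 ± 0.19 (adjusted p = 0.668, limma; exact permutation p = 0.0844, adjusted p = 0.127). Leaving out the libraries with few genes, that exact permutation p was 0.0317, unadjusted, over 126 regroupings, with a log2 difference of -0.34. No gene was called in any of the 6 hippocampal treatment contrasts (0% of 15267), where 210 to 911 genes had an unadjusted p under 0.05. In simulated data for angiotensin II against vehicle, the hippocampal fit recovered 7.14% of genes changed by 0.5 log2 and 22% of those changed by 1. The hemisphere fit recovered 54.1% and 96%. Most changes of that size would therefore be missed in the hippocampus.

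The test of whether angiotensin II differed in its effect between regions, among mice given hydralazine, gave -0.41 ± 0.20 for Neat1 (hippocampus minus hemisphere, log2; unadjusted p of 0.0448, adjusted p = 0.795, limma). No gene was called there (0% of 17643). The same difference without hydralazine was -0.32 ± 0.20 and is a description. None of the other 4 members was called in either test.

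Malat1, Meg3, Miat and Snhg11 in the hemisphere were not called in any treatment contrast. Malat1 with angiotensin II ran from 26.2 to 73.8 FPKM (median 71.5) and with vehicle from 27.6 to 80.5 (median 61.9). Its wide spread leaves an interval of 0.709 to 1.57 around a fold of 1.06 (adjusted p = 0.927, limma). Meg3 ran from 168 to 216 FPKM with angiotensin II and from 125 to 214 with vehicle, a fold of 1.06 (0.906 to 1.23; adjusted p = 0.789). For Snhg11 the ranges were 153 to 235 and 168 to 238 FPKM, a log2 difference of 0.00 ± 0.10 (fold interval 0.866 to 1.16; adjusted p = 0.993). Changes within those intervals were not detectable with these libraries.

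Miat had the smallest p of these 4. With angiotensin II its 6 libraries ran from 34.8 to 40.2 FPKM (median 36.9), all above the vehicle mean of 33.6 ± 3.22 (SD, n = 6). The vehicle libraries ran from 28.7 to 37.1, so the groups overlapped. The fold was 1.11 (1.01 to 1.22), with an unadjusted p of 0.0346 and an adjusted p = 0.523 by limma. With both drugs against hydralazine alone, the Miat fold was 1.01 (0.916 to 1.11).

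In the hippocampus, the same 4 members were not called in any treatment contrast. Medians of the 4 groups ran from 18.3 to 23.6 FPKM for Malat1 and from 43.7 to 47.3 for Meg3. They ran from 20.001 to 22.1 FPKM for Miat and from 80.5 to 86.0 for Snhg11. Intervals of the fold with angiotensin II were 0.770 to 1.72 for Malat1, 0.852 to 1.37 for Meg3, 0.925 to 1.56 for Miat and 0.902 to 1.34 for Snhg11.

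**Figure D2:**
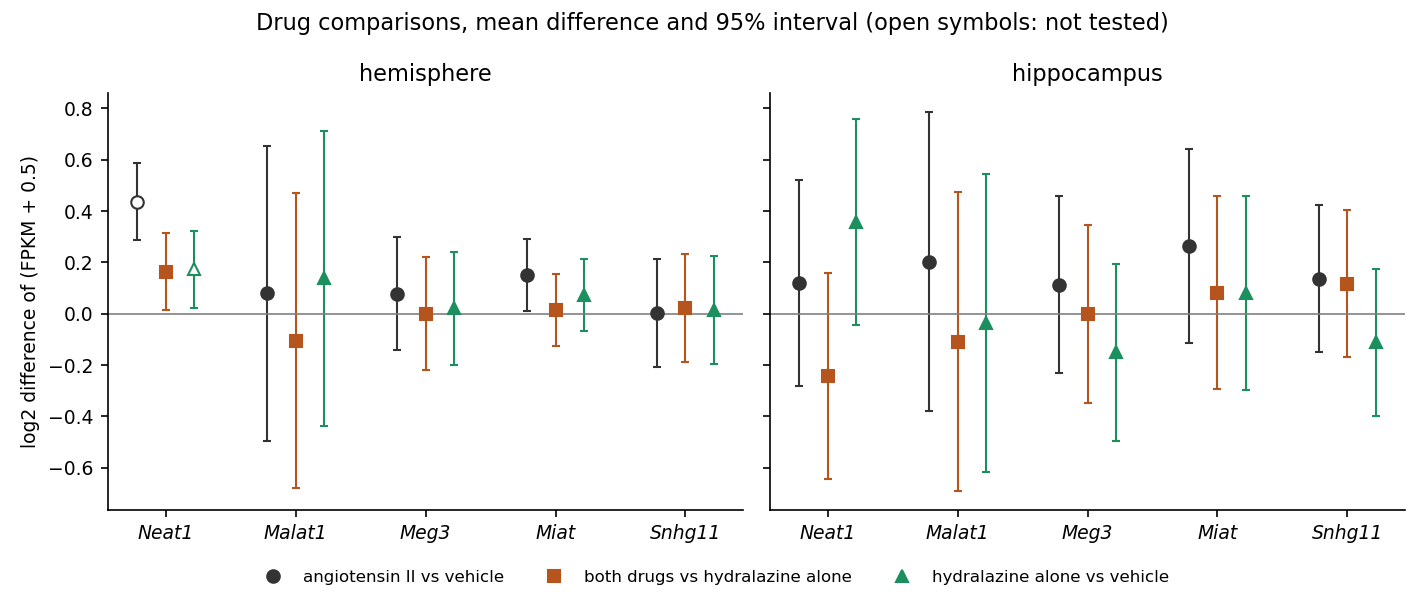
Log2 difference of each member in 3 treatment contrasts of the hemisphere (left) and the hippocampus (right), on the log2(FPKM + 0.5) scale, with 95% intervals from limma. Open symbols are the hemisphere Neat1 contrasts that use vehicle or angiotensin II libraries (0.44 for angiotensin II against vehicle), given as descriptions; filled symbols were tested and none was called.

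Proteins of the bodies these RNAs build were examined next. The paraspeckle list held 35 proteins, all tested, and 0 were called in any treatment contrast of either region. With angiotensin II in the hemisphere, 15 were above 0 and 20 below, with a median log2 difference of -0.04 (-0.00 over all genes). The mean log2 level of the list was 3.49 in angiotensin II replicate 6, against 3.72 to 3.77 in the others of its group. The 2 most abundant, Akap8l (0.11) and Hnrnpa1 (0.06), and the core proteins were not called. Sfpq, which with Nono binds Neat1 early, differed by -0.12, Nono by -0.04 and Pspc1 by -0.04 on the log2 scale. The 12 tested genes within 100 kb of Neat1 or Malat1, of 23 in the table, had differences from -0.17 to 0.14 there, with 0 called.

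For nuclear speckle and splicing proteins, the compartment of Malat1, 25 were tested in the hemisphere and 0 called in any treatment contrast. With angiotensin II 3 were above 0 and 22 below, with a median of -0.13. The mean log2 level of the list was 3.26 in angiotensin II replicate 6 and 3.91 to 4.03 in the others of its group. Vehicle libraries ran from 3.84 to 4.02, so without that replicate the groups overlapped. The 2 most abundant, the splicing factor Srsf5 and the helicase Ddx39b, differed by 0.09 and 0.12. The 7 tested proteins that bind Miat or Meg3 gave 0 calls and a median of -0.14, with Celf3 at 0.03 and Sf1 at -0.07. In replicate 6 their mean log2 level was 2.46, against 2.93 to 3.05 in the others of the group and 2.97 to 3.09 in vehicle. In the imprinted cluster of Meg3, 6 genes gave 0 calls in the hemisphere and 4 were tested in the hippocampus, also with 0 calls. Begain and Rian, the most abundant, differed by 0.07 and -0.07, and Dio3, an enzyme that inactivates thyroid hormone, by more (0.34 ± 0.12 log2, adjusted p = 0.428, limma). Of 38 other long noncoding RNAs tested, 19 were above 0 and 19 below, with 0 called; 2900097C17Rik was at 206 FPKM with angiotensin II and 185 with vehicle (0.16 log2, adjusted p = 0.459, limma), and 6330403K07Rik at 175 and 157 (0.15 log2).

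Marker lists of other cell types gave 0 calls in the same contrast. Beside the higher Neat1, 8 of 10 microglial markers were above 0 (median log2 difference 0.13), and their summed level ran from 163 to 194 FPKM in vehicle and from 168 to 244 with angiotensin II. Of 7 blood cell markers, 6 were above 0 (median 0.31; sums of 60.7 to 157 and 71.6 to 216 FPKM). All 10 tested choroid plexus markers were below 0 (median -0.25; sums of 485 to 845 and 361 to 702 FPKM). No marker of these 3 lists was at 0 in all libraries of either group. Ribosomal protein mRNAs were above 0 for 30 of 33 (median 0.14) and mitochondrially encoded mRNAs for 1 of 13 (median -0.23). In angiotensin II replicate 6 the mean log2 level of the mitochondrial list was 7.71, against 9.24 to 9.53 in the others of its group. Vehicle libraries ran from 9.31 to 9.69. The ribosomal mean of that replicate was 6.87, against 6.45 to 6.65 in the others and 6.31 to 6.73 in vehicle. Its microglial (3.87) and blood cell (3.53) means were also the highest of the group. The part of these lists in the Neat1 difference was not tested.

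By likeness across the 24 hemisphere libraries, taken as the correlation of log2 levels and chosen with the treatment groups included, the 5 genes most like Neat1 of 13650 were Jrk (r = 0.81), 2810029C07Rik (0.79), 2900097C17Rik (0.79), Neil1 (0.78) and Sirpa (0.77). Neil1 is a DNA glycosylase of base excision repair and Sirpa a receptor of the cell surface that binds CD47. In the 24 hippocampal libraries, which played no part in the choice, the same genes had r of 0.11, -0.44, 0.08, 0.27 and 0.02 with Neat1. Without the hippocampal libraries with few genes (n = 18), these were 0.27, -0.005, 0.26, 0.25 and 0.30. Miat ranked 40 by that measure (r = 0.70), Meg3 1125, Snhg11 2515 and Malat1 3393. These are descriptions of libraries that share depth and treatment.

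All 5 members were lower in the hippocampus than in the hemisphere wherever this could be tested. Meg3 was lowest relative to hemisphere: in vehicle mice its libraries ran from 43.6 to 72.6 FPKM in hippocampus (median 47.3) and from 125 to 214 in hemisphere (median 199.8). The groups did not overlap, and the hippocampal level was 0.269 times that of hemisphere (log2 difference -1.90 ± 0.14, adjusted p = 5.87e-15, limma). Malat1 was at 0.387 (-1.37 ± 0.28, adjusted p = 0.000105), from 13.9 to 40.5 FPKM against 27.6 to 80.5. Its groups overlapped in vehicle, angiotensin II and hydralazine alone, where single hemisphere libraries were low. Snhg11 was at 0.412 (-1.28 ± 0.12, adjusted p = 9.08e-12), with 73.4 to 96.3 FPKM against 168 to 238. Miat differed least of the 4, at 0.613 (-0.71 ± 0.14, adjusted p = 4.58e-05), with 15.3 to 28.6 FPKM against 28.7 to 37.1. In angiotensin II mice the regions overlapped for Miat and Snhg11 through hippocampal replicate 6. There Miat was at 48.3 FPKM, above the highest of all hemisphere libraries (40.9). Snhg11 was at 165 FPKM, within the 153 to 235 of hemisphere angiotensin II libraries.

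Neat1 was tested between regions in the mice given hydralazine. With hydralazine alone it was at 0.637 of the hemisphere level in hippocampus (-0.65 ± 0.14, adjusted p = 0.000129, limma), and with both drugs at 0.481 (-1.06 ± 0.14, adjusted p = 2.49e-08). Neither pair of groups overlapped. In vehicle and angiotensin II mice its log2 differences were -0.84 and -1.15, given as a description. The other 4 members were called in all of the 4 treatment groups, with log2 differences of -1.86 to -2.07 for Meg3, -1.25 to -1.55 for Malat1, -1.15 to -1.41 for Snhg11 and -0.59 to -0.71 for Miat.

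Many genes differed between the regions, so the count of members is read against that background. Of 17643 genes, 42.2% were called in vehicle, 37% in angiotensin II, 50.7% in hydralazine alone and 42.4% with both drugs. Called lower in hippocampus were 29.5%, 24.6%, 38.4% and 28.8%, against 4 of 4 tested members in the first pair of groups and 5 of 5 in the other. The median gene also lay below 0, at -0.21, -0.14, -0.37 and -0.20, and quantile scaling moved these medians to between 0.04 and 0.05 with all members still called. The members lay below the median gene in each case. How many of all genes had no overlap between the regions was not counted.

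Signs of RNA composition moved with region. Ribosomal protein mRNAs were higher in hippocampus for 32 of 33 (vehicle; median log2 difference 1.20), with summed levels of 7382 to 10434 FPKM against 3532 to 4829. Their mean log2 level per library had a median of 7.69 in the other hippocampal libraries, leaving out angiotensin II replicate 6, and 6.50 in hemisphere. Mitochondrially encoded mRNAs were called higher for 8 of 13 and lower for 1, where 12.7% of all genes were called higher and 29.5% lower. Choroid plexus markers were lower for 8 of 10. The part of these in the regional difference of the members was not tested, and dissection, extraction and region cannot be told apart.

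**Figure D3:**
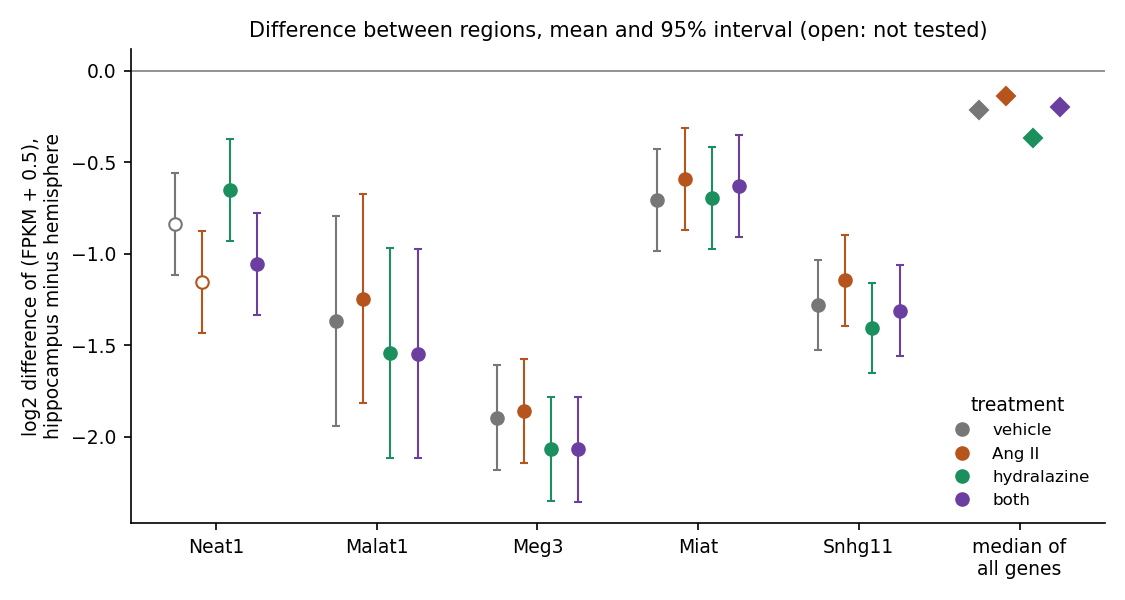
Log2 difference between hippocampus and hemisphere (hippocampus minus hemisphere) of each member in the 4 treatment groups, with 95% intervals from limma and the median of all genes at the right; open symbols (Neat1 in vehicle and angiotensin II) were not tested. All member values lie below 0, from -0.59 for Miat to -2.07 for Meg3, and below the median of all genes (-0.14 to -0.37).

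Partners of the members were compared between the regions as well. Of 35 paraspeckle proteins, 0 were higher and 9 lower in hippocampus of vehicle mice, near the 29.5% of all genes called lower, which shows nothing particular to the list. Ahdc1 (-0.96 log2, adjusted p = 1.86e-05, limma), Hnrnpul1 (-0.63) and Ubap2l (-0.37) were among the 9, whereas the core proteins were not called: Sfpq differed by 0.22 (adjusted p = 0.158), Nono by -0.05 (0.731) and Pspc1 by -0.21 (0.318). Of 25 nuclear speckle proteins, 0 were higher and 12 lower, beside the same 29.5%. Srrm2, a large scaffold protein of speckles, went from 39.0 to 15.4 FPKM (-1.35, adjusted p = 3.64e-09), and Acin1 (-0.84), Srsf2 (-0.88) and Nktr (-1.46) were also lower. Of 7 proteins that bind Miat or Meg3, 4 were lower: Jarid2 (-0.60), a partner of the Polycomb complex that holds Ezh2, Celf3 (-0.64, adjusted p = 0.0121), a neuronal splicing factor, Ezh2 (-0.65, adjusted p = 0.00922), a histone methyltransferase, and Sf1 (-0.33, adjusted p = 0.0308), which reads the repeated word of Miat shown above.

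The imprinted cluster around Meg3 was lower as far as it was called. In vehicle mice 4 of 6 genes were lower and 0 higher, where 29.5% of all genes were called lower. Dlk1, a membrane protein expressed from the paternal copy, was at 6.91 FPKM in hemisphere and 0.063 in hippocampus (-3.72, adjusted p = 2.48e-29, limma). Rian, a noncoding RNA downstream of Meg3 and maternal like it, went from 26.2 to 15.9 FPKM (-0.71, adjusted p = 4.16e-07). Dio3 differed by -1.57 and Rtl1 by -1.27. Mirg, further downstream, was at -0.29 (adjusted p = 0.212) and Begain at -0.02. In the other 3 treatment groups 5 of 6 were lower, where 24.6% to 38.4% of all genes were.

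Other long noncoding RNAs differed between the regions in both directions. Of 38 tested in vehicle mice, 12 were higher, where 12.7% of all genes were, and 10 were lower, near the 29.5% of all genes. Pantr1 stood at 6.04 FPKM in hemisphere and 26.4 in hippocampus (2.04 log2), and Gas5, a host gene of small nucleolar RNAs like Snhg11, at 20.8 and 51.6 (1.27). Mir124a-1hg, the precursor of a neuronal microRNA, went from 59.8 to 26.3 FPKM (-1.18) and Peg13, an imprinted RNA, from 82.7 to 39.2 (-1.07).

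Within a region, libraries of the same group differed in the members, and several members did so together. After each group's mean was removed, Malat1 correlated with Snhg11 at Pearson's r = 0.92 (Spearman's rho = 0.83) and with Meg3 at r = 0.90 (rho = 0.87) over the 24 hemisphere libraries, each with a permutation p of 1e-05, the smallest that 100000 permutations can give, and an adjusted p of 5e-05 over 10 relations. Without the 2 libraries farthest from the Malat1 median, r was 0.84 and 0.89. Meg3 and Snhg11 correlated at r = 0.86 (rho = 0.79). Of 16746 other genes, Snhg11 ranked 169 and Meg3 287 by correlation with Malat1, and the median gene had r = 0.06. All 10 pairs were positive. Of the 6 that do not involve Neat1, 4 passed an adjusted permutation p of 0.05. Counted from either member of a passing pair, 0.454% to 12.1% of all genes correlated at least as strongly. The 12.1% was for Miat by correlation with Meg3 (r = 0.61), where counting from Miat gave 1.47%. For the pairs without Neat1 that did not pass, the share was 8.26% to 34.3%.

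Correlations of Neat1 in the hemisphere are given without a test, since 12 of the 24 libraries chose it. Over all 24 it had r = 0.67 with Miat (rho = 0.72), 0.51 with Meg3, 0.45 with Snhg11 and 0.33 with Malat1, its chromosomal neighbour. The order of the members turned without angiotensin II replicate 6: r was then 0.76 with Snhg11, 0.65 with Miat, 0.62 with Meg3 and 0.58 with Malat1. Among all genes ranked by correlation with Neat1, Miat moved from 57 to 302 and Snhg11 from 825 to 25. No member can therefore be named as the one closest to Neat1.

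In the hemisphere 3 libraries stood apart. Vehicle replicate 1 held Malat1 at 27.6, Meg3 at 125 and Snhg11 at 168 FPKM, and hydralazine alone replicate 1 at 33.4, 148 and 167. In angiotensin II replicate 6 these were 26.2, 168 and 153 FPKM, while its Neat1 (10.4) and Miat (40.2) were the highest of the group. Without the 3 libraries, Malat1 correlated with Snhg11 at r = 0.68 and with Meg3 at r = 0.84 (n = 21), and 5 of the 6 pairs without Neat1 passed. Neat1 then had r = 0.74 with Snhg11 and 0.52 with Miat. The Neat1 difference with angiotensin II was then 0.37 on the log2 scale, and with both drugs against hydralazine alone 0.14 (adjusted p = 0.325, limma).

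Library measures were set beside the members. Malat1 correlated with the number of genes above 0 at r = 0.82 over hemisphere libraries (rho = 0.86, permutation p = 5e-05, adjusted p = 0.0005) and at 0.59 without the 3 libraries (adjusted p = 0.0394). For Meg3 r was 0.71 over all libraries and 0.50 without the 3 (adjusted permutation p = 0.0718), and for Snhg11 0.66 and 0.12 (adjusted permutation p = 0.773). Leaving out the 2 libraries farthest from the median number of genes gave r = 0.82 for Snhg11 (n = 22). With the 3 also left out, that r was 0.54 (n = 19), so the relation of Snhg11 depends on which libraries are kept. With the mitochondrial share of reads, Malat1 had r = 0.22 over all 24 libraries, -0.77 without angiotensin II replicate 6 and -0.50 without the 3. For Meg3 these were -0.06, -0.78 and -0.44, and for Snhg11 0.34, -0.57 and -0.09. The part of these measures in the correlations between members was not tested.

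**Figure D4:**
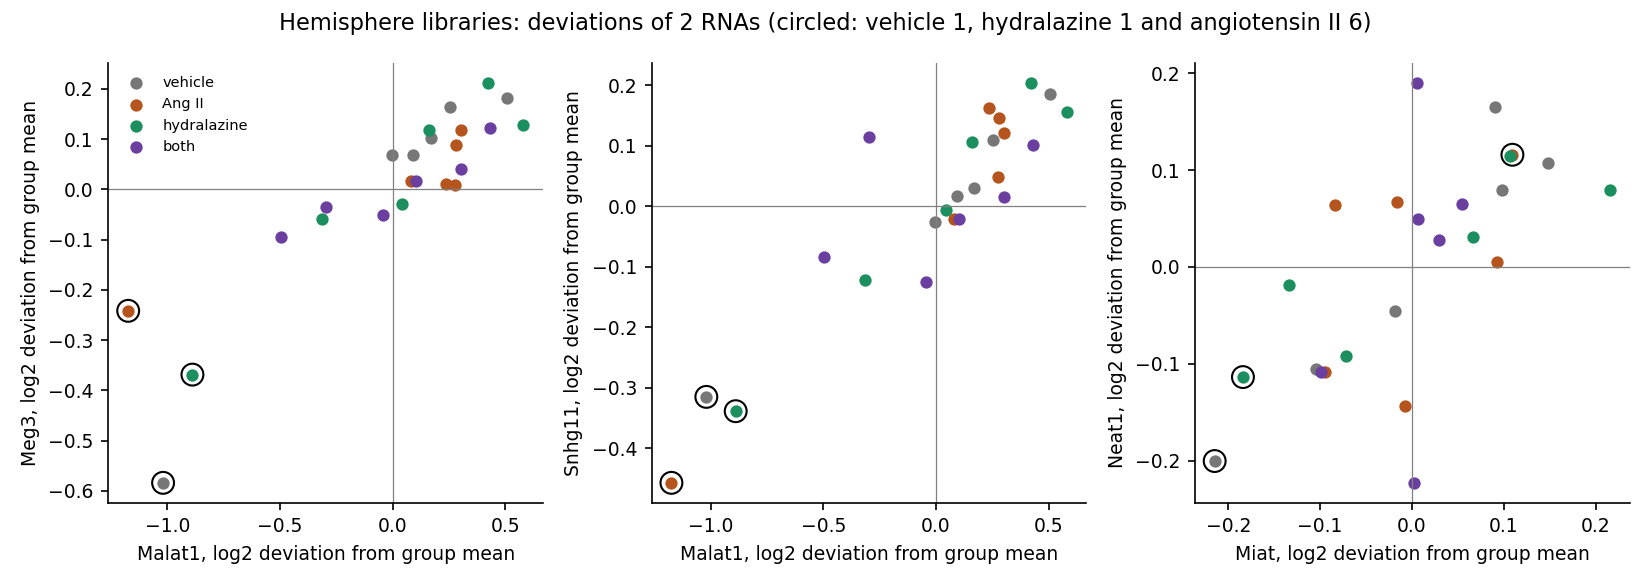
Deviation of each hemisphere library from its group mean (log2 scale) for 3 pairs of members; each point is 1 of 24 libraries, coloured by treatment, and circles mark the 3 libraries that stood apart. Meg3 (r = 0.90) and Snhg11 (r = 0.92) are plotted against Malat1, where the circled libraries lie at the lower left, and Neat1 against Miat (r = 0.67; 0.65 without angiotensin II replicate 6), where they do not lie together.

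In the hippocampus, Meg3 correlated with Snhg11 at r = 0.87 (rho = 0.75) and with Miat at r = 0.86 (rho = 0.64), each with an adjusted permutation p of 5e-05. Miat and Snhg11 gave r = 0.73 (rho = 0.59, adjusted permutation p = 0.00263), and these 3 of 10 pairs passed. Counted from either member of these pairs, 0.00655% to 0.596% of all genes correlated at least as strongly. By correlation with Meg3, Snhg11 ranked 5 and Miat 6 of 15266 genes. Malat1, which followed Meg3 in the hemisphere, had r = 0.40 with it here (adjusted permutation p = 0.0897). The 2 regions' correlations were not tested against each other.

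A single library carried much of this. Hippocampal angiotensin II replicate 6 held Snhg11 at 165 FPKM (80.6 to 88.4 in the other 5 of its group), Meg3 at 109 (45.2 to 51.7) and Miat at 48.3 (18.2 to 23.2). Its Neat1 was 6.06 FPKM (2.93 to 5.08), the highest of all hippocampal libraries, and its Malat1 was 34.7 (17.7 to 36.3), within the range of its group. Without it Snhg11 ranked 317 and Miat 158 by correlation with Meg3, and 2 pairs passed, Meg3 with Miat (r = 0.67, adjusted permutation p = 0.0045) and Meg3 with Snhg11 (r = 0.61, adjusted permutation p = 0.0210), and Miat with Snhg11 had r = 0.34.

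This library was hippocampal by its markers. Its mean log2 level of hippocampal neuron markers was 4.68, against a median of 4.63 in the other hippocampal libraries and 2.16 in hemisphere. Striatal, thalamic and cerebellar markers stood at 0.153, against 0.154 and 3.14. Its ribosomal protein mRNAs (6.48), mitochondrially encoded mRNAs (9.34) and nuclear speckle mRNAs (4.09) were near the hemisphere medians of 6.50, 9.35 and 3.99. The other hippocampal medians were 7.69, 10.1 and 3.53. Across the 24 hippocampal libraries Meg3 correlated with the mitochondrial share of reads at r = -0.81 (rho = -0.56, adjusted permutation p = 0.00035), Snhg11 at -0.80 and Miat at -0.68; without this library r for Meg3 was -0.62. Whether this share sets the level of the members was not tested.

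**Figure D5:**
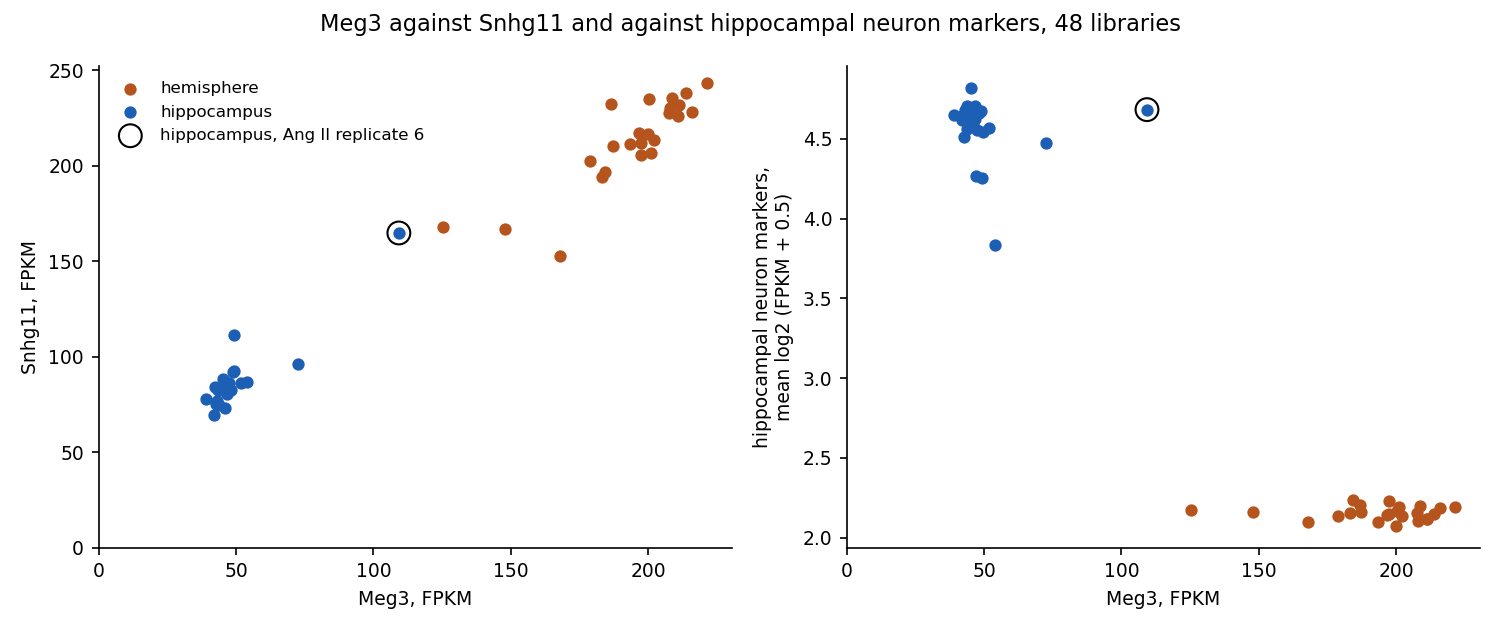
Meg3 level (FPKM) of all 48 libraries against the Snhg11 level (FPKM, left) and against the mean log2 level of hippocampal neuron markers (right), by region. The circled hippocampal angiotensin II replicate 6 (Meg3 109 FPKM, Snhg11 165 FPKM) lies by Meg3 between the other hippocampal libraries (39.2 to 72.6 FPKM) and the hemisphere libraries (125 to 221 FPKM), by Snhg11 within the hemisphere range (153 to 243 FPKM), and with the hippocampal libraries by its markers (4.68) on the right.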

How the data were processed

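RNA-seq libraries came from 24 hemisphere and 24 hippocampal samples in 8 groups of 6, made from total RNA according to the labels' protocols. The authors deposited FPKM for 54532 genes together with gene lengths. Builds (GRCm38, mm10) and DESeq 1.10.1 appear in the submitters' processing notes. The aligner, counter and strand setting were not given in the sources used here; genes overlapping on either strand are therefore uncertain. Multiplying FPKM by length returned whole reads for 100% of values (tolerance 0.1 read), from which the stated depths come. No 2 libraries of a group were identical within sampling noise (0 of 120 pairs).

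The analysis scale was log2(FPKM + 0.5), on which changes of low genes are understated. A gene entered a fit if 6 or more of its libraries reached 0.5 FPKM, and all 5 members did. limma 3.58.1 (R 4.3.3; trend, robust prior) fitted 1 mean per group, with a common spread over the 4 groups of a region, or over all 48 libraries for contrasts of regions. Tests were two-sided with Benjamini-Hochberg adjustment over all genes and a threshold of 0.05. Correlations used deviations from group means and 100000 permutations. Genes named from a list were up to 4 called genes of smallest p or, where none was called, the 2 of highest FPKM; the neighbours within 100 kb and the 5 genes most like Neat1 were added. Some genes that the rule names are not reported here. The core paraspeckle proteins, Dio3 in the hemisphere, Mirg and Begain were chosen after their values were seen. Members and lists were chosen with earlier results of these data known. Sequences came from GENCODE M21 transcripts and RefSeq promoters. Alternatives covered pseudocount, filter, scaling, prior, library weights, a length trend, the groups fitted, a replicate block and libraries left out. Chosen after seeing the data were the Neat1 permutation test, the library measures, the ranks of pairs, the search for TACTAAC and the fits without 3 hemisphere libraries. The model was first tested on simulated data, in which 100 genes changed by 0.5 and 100 by 1 on the log2 scale. Unchanged genes called there numbered 8 in the hemisphere and 0 in the hippocampus.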

Additional observations from a re-analysis of the deposited data

Results flagged for a closer look

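In 10 of the 40 combinations of a member and a group of 6, the highest or lowest library was separated from the others by more of the group's range than Dixon's 95% limit for 6 samples (0.625); chance gives about 1 in 20. Neat1 gave none.

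Hippocampal angiotensin II replicate 6 was high for Meg3 (109 FPKM; the other 5 at 45.2 to 51.7; gap 0.899 of the range), for Snhg11 (165; 80.6 to 88.4; 0.907) and for Miat (48.3; 18.2 to 23.2; 0.835). In the hemisphere, angiotensin II replicate 6 was low for Malat1 (26.2 FPKM; the others at 63.1 to 73.8; gap 0.775), for Meg3 (168; 200 to 216; 0.666) and for Snhg11 (153; 207 to 235; 0.657). These 2 libraries share a number and a treatment but stood apart in opposite directions for Meg3 and Snhg11. In both, Neat1 and Miat were the highest of the group. Both also had the lowest mitochondrial share of reads in their region (2.77% in the hemisphere, 5.74% in the hippocampus).

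Of the remaining 4, Meg3 was low in hemisphere vehicle replicate 1, at 125 FPKM (the others at 197 to 214; gap 0.814). Meg3 was high in hippocampal vehicle replicate 3, at 72.6 FPKM (43.6 to 49.3; gap 0.805), and Malat1 in hippocampal replicate 5 of both drugs, at 29.3 FPKM (16.6 to 19.7; gap 0.753); both are among the libraries with few genes. Miat was low in hemisphere replicate 5 of both drugs, at 33.2 FPKM (35.6 to 36.9; gap 0.645).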

How the results depend on the processing

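No called difference of a member changed sign or lost its call (468 values), and none that was not called became called (1825 values). Of these 1825, 184 had the other sign, for 39 of 64 differences, so no direction is read from them. Moves larger than the spread between libraries were seen in the region difference of the angiotensin II effect without angiotensin II replicate 6 of both regions, for Meg3 (0.04 to -0.21) and Snhg11 (0.13 to -0.12). Without the hippocampal library alone these were -0.16 and -0.03. The values of Neat1 given as a description kept their sign in all 227 alternatives. The number of hippocampal pairs of members that passed was 5 in place of 3 without the libraries with few genes; the cause was not tested. The labels do not say whether libraries of the same number belong together, and correlations of their deviations cannot decide it. For same-numbered libraries the median correlation was 0.004 in the hemisphere (3 of 36 pairs over 0.1, highest 0.473). In the hippocampus it was 0.068 (10 of 36, highest 0.260). Between libraries of other numbers the medians were 0.0006 and 0.025. Between regions the same-number median was -0.009 (0 of 24 over 0.1). With the replicate block, 0 members were called in the treatment contrasts, Neat1 with both drugs against hydralazine alone stayed at 0.16, and 5 genes in place of 12 were called for angiotensin II in the hemisphere. That count ran from 0 to 20 when 1 library was left out, was 2 without the 3 hemisphere libraries or with only the 2 groups compared in the fit, 4 with no filter on low values and 38 with library weights. Depth limits low genes in the hippocampal library of 1.21 M reads.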
